A study of Mus musculus with 4 samples.

Results

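Syndecans and glypicans are the main families of cell surface proteins that carry heparan sulfate. The members were the mouse genes Sdc1 to Sdc4 and Gpc1 to Gpc6, found through the RefSeq accession with which each probe set identifier begins. All 10 were on the array, with 1 probe set each, among 1246 probe sets and 909 named genes. The data were 4 expression arrays of cultured vascular smooth muscle cells (VSMC) of wild-type genotype. All cells were kept in osteogenic medium, so both groups carry that treatment. Streptozotocin, a glucosamine-linked nitrosourea used to make animals diabetic, was added at 0.4 mM in 1 group of 2 arrays and left out in the control group of 2 arrays. The titles name 2 cell samples, here called cultures, WT2 as replicate 1 and WTA as replicate 2, and each has 1 array in each group. All titles also hold the mark 3w, whose meaning is unresolved here. The labels give no sex, strain or number of animals, and they do not say whether the culture names stand for separate animals. The p-values therefore rest on the spread between these samples, which may be technical, and on variance shared across probe sets. With treatment alone in the fit, that spread holds the difference between WT2 and WTA. Cells from Runx2 knockout mice, which the design text mentions, were not analysed here.

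Syndecans span the membrane once, and their short cytoplasmic tails connect the sugar chains outside to the cytoskeleton and to signalling proteins inside. Glypicans are globular proteins held in the outer leaflet by a glycosylphosphatidylinositol (GPI) anchor, and they modulate Wnt, Hedgehog, bone morphogenetic protein (BMP) and fibroblast growth factor (FGF) signals. On both, the heparan sulfate chains bind growth factors and chemokines and present them to receptors. In the artery wall such chains take part in smooth muscle growth, migration and adhesion, and in bone they bind the factors that direct osteoblast differentiation.

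The array had few probes for the identity of the cells. Of 7 smooth muscle markers and 8 bone markers that were listed, 0 were among the named probe sets, so the labelled cell type could not be checked by its own markers. Of 13 endothelial markers 6 were measured, 2 of them (Pecam1 and Sele) below the lower quartile of the arrays. Cd34 and Thbd were bright, at 8.63 or more on every array, and Esm1 was bright in WTA alone, with a mean of 9.16 there and 4.23 in WT2. Of 20 leukocyte and macrophage markers 7 were measured, 4 of them below that quartile. The brightest was Csf1r, between 7.40 and 7.92 and so above the median of every array. Of 6 fibroblast markers 3 were measured, Dcn, Lum and Pdgfra, all bright. The array medians lay between 5.83 and 5.87 and the lower quartiles between 4.39 and 4.40, on the log2 scale. The number of arrays limits the precision of every value.

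Promoter sequence is shown for the members with the largest streptozotocin differences among those in the RefSeq promoter table. That table (build GRCm38.p6) held 7 of the 10 members, namely Sdc1, Sdc3, Sdc4, Gpc2, Gpc3, Gpc4 and Gpc5. Printed below are the 250 bases before the annotated start of 4 of them, 5′ to 3′ on the strand of the gene. Sdc4 and Sdc1 stood higher with streptozotocin in both cultures, and Gpc3 and Gpc2 lower in both. Capitals mark every match to the motifs searched, on either strand, and adjoining matches run together.
Sdc4, chr2:164443189-164443438, minus strand: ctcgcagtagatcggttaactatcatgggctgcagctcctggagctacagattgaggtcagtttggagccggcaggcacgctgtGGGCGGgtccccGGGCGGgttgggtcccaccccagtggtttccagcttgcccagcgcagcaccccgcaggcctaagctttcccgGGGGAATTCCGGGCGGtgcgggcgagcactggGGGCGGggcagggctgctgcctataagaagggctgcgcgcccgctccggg
Sdc1, chr12:8771146-8771395, plus strand: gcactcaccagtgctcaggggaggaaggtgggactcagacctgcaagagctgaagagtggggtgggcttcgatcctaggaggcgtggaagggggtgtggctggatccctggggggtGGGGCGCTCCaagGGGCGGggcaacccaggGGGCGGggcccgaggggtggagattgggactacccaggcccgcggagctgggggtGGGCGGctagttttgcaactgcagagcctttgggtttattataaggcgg
Gpc3, chrX:52613975-52614224, minus strand: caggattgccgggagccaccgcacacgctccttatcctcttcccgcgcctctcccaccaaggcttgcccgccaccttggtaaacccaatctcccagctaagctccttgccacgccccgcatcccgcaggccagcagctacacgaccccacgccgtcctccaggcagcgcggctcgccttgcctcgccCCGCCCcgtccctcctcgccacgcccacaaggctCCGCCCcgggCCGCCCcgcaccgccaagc
Gpc2, chr5:138279938-138280187, minus strand: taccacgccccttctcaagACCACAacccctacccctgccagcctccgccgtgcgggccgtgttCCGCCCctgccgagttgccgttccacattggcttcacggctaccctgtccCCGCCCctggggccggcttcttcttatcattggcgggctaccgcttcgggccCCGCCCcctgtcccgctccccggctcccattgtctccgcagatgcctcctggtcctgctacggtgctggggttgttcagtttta

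The motifs were the GC box GGGCGG, to which Sp1 family factors bind, the TATA box TATAAA, the Runx core motif TGTGGT, the E-box CACGTG, the AP-1 motif TGANTCA, and, by name, the CArG box of serum response factor and the NF-kB motif. The GC box was found in all 7 members' windows and in 32.7% of 32851 windows of the same length. Sdc4 held 4 GC boxes, Sdc1, Sdc3, Gpc2 and Gpc3 held 3 each, and Gpc4 and Gpc5 held 1 each. The NF-kB motif was found in Sdc4 and in Sdc1, once each, and in 7.25% of all windows. In Sdc4 it directly adjoins a GC box. The Runx motif was found in Gpc2 alone, and 14.0% of all windows held it. Gpc5 alone held an exact match to TATAAA, on the opposite strand with its first base at -185, against 12.4% of all windows. The letters TATAAG, which differ from that motif at the last base, stand in the Sdc4 and Sdc1 windows and were not counted. The CArG box, the AP-1 motif and the E-box were in 0 of the 7 windows and in 1.47%, 6.75% and 6.02% of all windows. GC content ran from 66% in Sdc1 to 76.4% in Sdc3 among 6 of the members and was 51.2% in Gpc5, where the median of all windows was 52.4%. These matches are a description of the letters only.

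The first comparison asked which syndecans and glypicans differ between VSMC with and without streptozotocin. Sdc4, Sdc1 and Sdc3 stood higher with streptozotocin in both cultures, while Gpc3, Gpc6 and Gpc2 stood lower in both. Gpc4 and Gpc5 stood higher in both as well, so the glypicans went both ways. The differences of these 8 were small, from 1.09-fold for Gpc5 to 1.41-fold for Gpc3. None of the 10 members passed the test (limma adjusted p = 1 for each), and 0% of all probe sets did. At an unadjusted p under 0.05 the test held 25 of 1246 probe sets (2.01%), and Gpc6 was the 1 member among them.

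**Figure D1:**
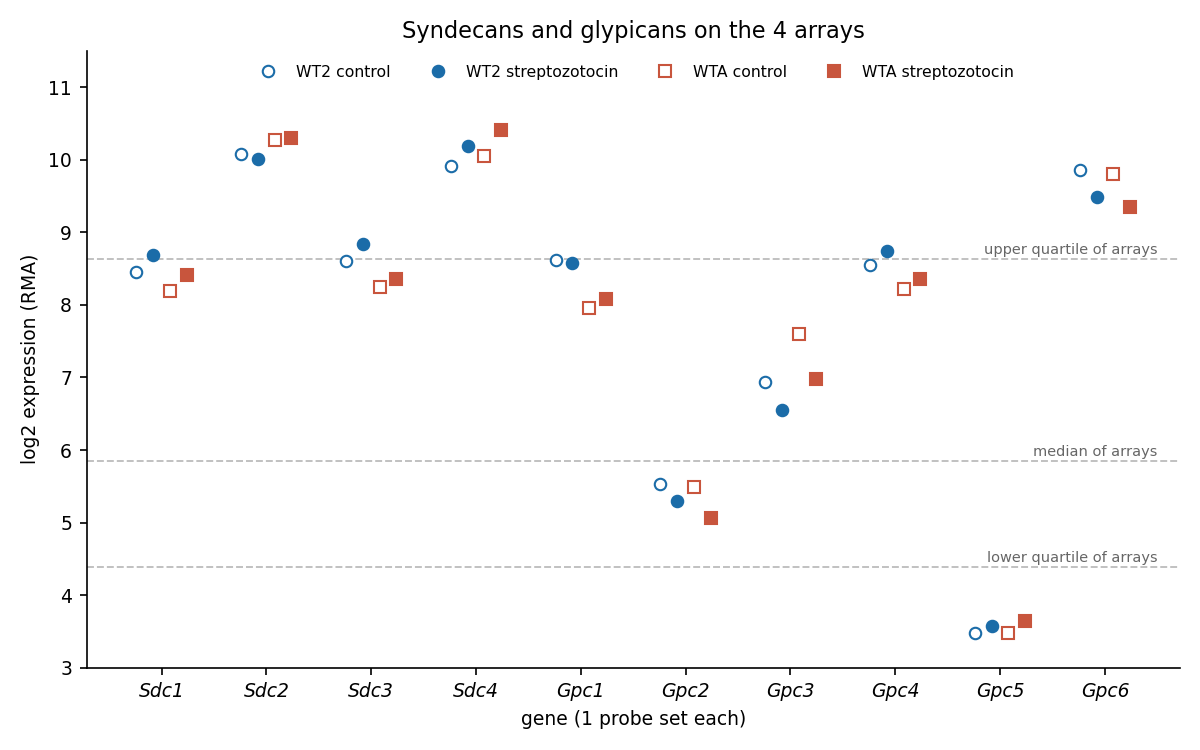
Log2 expression (RMA) of the 10 genes on the 4 arrays, with open symbols for control and filled symbols for streptozotocin arrays, circles for WT2 and squares for WTA. Dashed lines are the quartiles of all probe sets, averaged over the arrays. Sdc2, Sdc4 and Gpc6 lie above the upper quartile on all 4 arrays, Gpc2 lies below the median, and Gpc5 lies below the lower quartile.

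Among the syndecans, Sdc4 encodes the widely expressed member that joins integrins at focal adhesions and activates protein kinase C. Its log2 level was 10.18 with streptozotocin and 9.91 without in WT2, and 10.40 with and 10.05 without in WTA. Both streptozotocin arrays were above both control arrays. The group means were 10.29 ± 0.16 and 9.98 ± 0.10 (SD, n = 2 each), a difference of 0.31 (SE 0.12, 95% interval -0.04 to 0.67), which did not pass the test. The difference was 0.27 in WT2 and 0.36 in WTA, or 1.21-fold and 1.28-fold, and the mean ranged from 0.20 to 0.42 with 1 array left out. Leaving out an array also brings part of the culture difference into such a mean, here and below.

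Sdc1 encodes the syndecan of epithelial cells and plasma cells, known there as CD138. It stood at 8.68 with streptozotocin and 8.45 without in WT2, and at 8.41 and 8.19 in WTA. The groups overlapped, because the WT2 control array was above the WTA streptozotocin array. Within WT2 the difference was 0.23 and within WTA 0.21, with a mean of 0.22 (SE 0.16, 95% interval -0.24 to 0.69). That mean ranged from 0.085 without the WT2 streptozotocin array to 0.36 without the WTA streptozotocin array. No other epithelial marker was measured beside it.

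Sdc3, the syndecan first known from nerve and developing muscle, stood at 8.83 with streptozotocin and 8.60 without in WT2, and at 8.36 and 8.24 in WTA. Here the culture set the order, with both WT2 arrays above both WTA arrays. The streptozotocin difference was 0.23 in WT2 and 0.12 in WTA. Sdc2, the syndecan typical of mesenchymal cells, was nearly level, at 10.01 and 10.07 in WT2 and 10.30 and 10.27 in WTA. Its mean difference was -0.021 (95% interval -0.46 to 0.42), an interval that still holds the differences of the other 3 syndecans.

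Among the glypicans, Gpc6 takes part in Hedgehog signalling in the growth plate of bone. With treatment alone in the fit, it was the only member of either family whose 95% interval lay clear of 0. Its log2 level was 9.49 with streptozotocin and 9.86 without in WT2, and 9.34 with and 9.80 without in WTA. Both streptozotocin arrays were below both control arrays. The group means were 9.42 ± 0.10 and 9.83 ± 0.04 (SD, n = 2 each), a difference of -0.42 (SE 0.10, 95% interval -0.70 to -0.13). With 1 array left out it ranged from -0.49 to -0.34. Adjusted over all probe sets by limma, its p was 1.

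Gpc3, a glypican that binds Hedgehog ligands and restrains growth, and whose loss causes an overgrowth syndrome in people, had the largest mean difference of the family with all arrays in the fit. It stood at 6.55 with streptozotocin and 6.94 without in WT2, and at 6.98 and 7.59 in WTA. The groups overlapped, since the streptozotocin array of WTA lay just above the control array of WT2. The mean difference was -0.50 (SE 0.30, 95% interval -1.36 to 0.36), with -0.39 in WT2 and -0.61 in WTA. Leaving out single arrays moved it between -0.82 and -0.17. It was then no longer the largest without the WTA control array (-0.17, against -0.45 for Gpc6) or without the WT2 streptozotocin array (-0.28, against -0.49 for Gpc6 and -0.44 for Gpc2). The WTA value, 1.53-fold, was the only within-culture difference of the 10 members to reach 1.5-fold, which 2.33% of all probe sets did in WTA and 7.30% in WT2. With each array centred on its median, Gpc3 stood at -0.57 in WTA and no longer reached 1.5-fold.

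Gpc2, the glypican of developing neurons, stood at 5.30 and 5.53 in WT2 and at 5.07 and 5.49 in WTA, with streptozotocin named first. Both streptozotocin arrays were the lower ones, with a mean difference of -0.32 (SE 0.12, 95% interval -0.66 to 0.013), or -0.21 without the WTA streptozotocin array. All of its values were below the array medians, where background makes up more of a value and differences are compressed. The suffix s of the Gpc3 and Gpc6 identifiers can mark probes shared between transcripts or genes.

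The other glypicans did not share that direction. Gpc4, a modulator of Wnt and FGF signals, stood at 8.74 and 8.54 in WT2 and at 8.36 and 8.22 in WTA, a difference of 0.19 and 0.13. Gpc1, a glypican of muscle, nerve and endothelium that binds FGF2, differed by -0.030 in WT2 and 0.12 in WTA. Gpc5, a glypican mainly of brain and kidney, lay between 3.48 and 3.65, below the lower quartile of every array. Its streptozotocin values were above its control values by 0.09 and 0.16, at a level where signal and background cannot be separated. In the RefSeq table Gpc4 and Gpc3 are neighbouring coding genes on chromosome X, and Gpc5 and Gpc6 on chromosome 14. In each neighbouring pair the streptozotocin differences had opposite signs in both cultures, though the sign of Gpc5 is one at background.

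**Figure D2:**
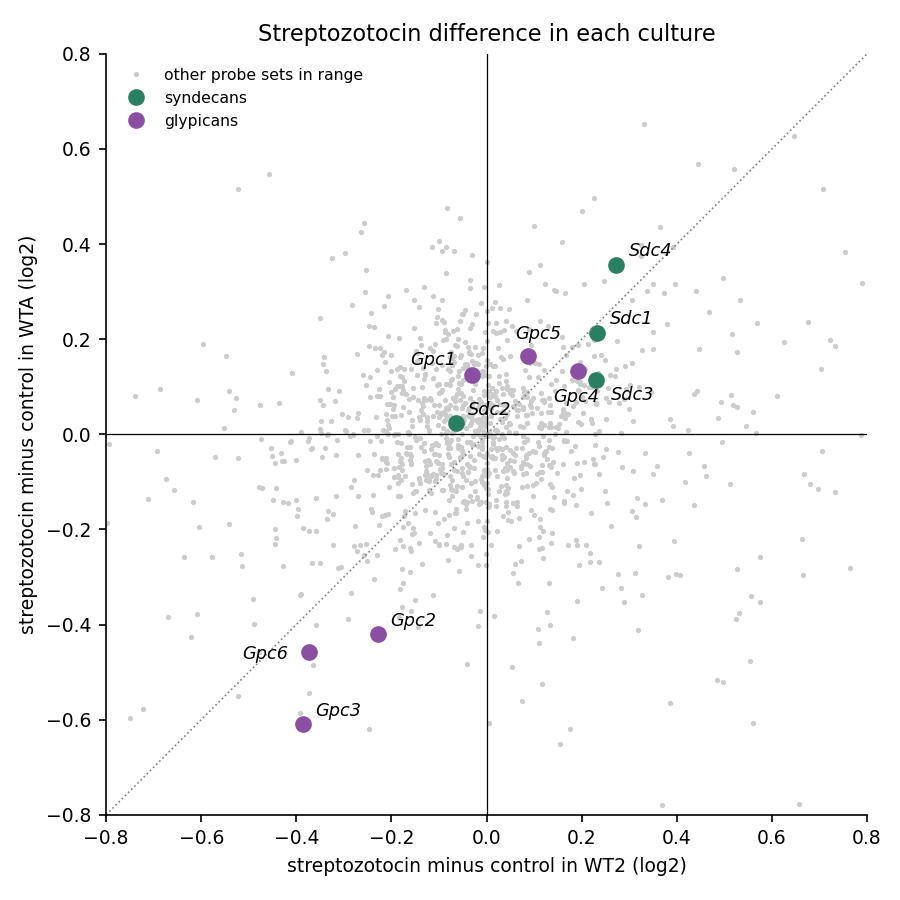
Streptozotocin minus control on the log2 scale in WT2 (x axis) against the same in WTA (y axis), with syndecans in green, glypicans in purple and other probe sets in grey. The dotted line marks equal differences, and 57 probe sets beyond 0.8 on either axis are not drawn. Gpc2, Gpc3 and Gpc6 lie in the lower left, Sdc1, Sdc3, Sdc4, Gpc4 and Gpc5 in the upper right.

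Both cultures gave the same sign for 8 of the 10 members, against 51.0% of all probe sets. Of these, 5 were higher with streptozotocin (22.6% of all probe sets) and 3 were lower (28.5%). The syndecans with a shared sign were 3 of 3 higher, and the glypicans were 2 higher and 3 lower. The median difference was 0.198 over the 4 syndecans and -0.139 over the 6 glypicans, against -0.0081 over all probe sets. With 3 glypicans above 0 and 3 below, their median falls in the gap between Gpc2 and Gpc1 and gives no family direction. Streptozotocin and control arrays did not overlap for 4 members, against 24.6% of all probe sets. Sdc4 and Gpc5 were on the higher side (10.8% of all probe sets) and Gpc2 and Gpc6 on the lower (13.8%). The signs and the 4 members without overlap were as many after median centring and after quantile normalization.

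Pairing the arrays by replicate number takes the culture difference out of the spread. In that fit 4 of the 10 members had an unadjusted p under 0.05, against 6.42% of all probe sets. They were Gpc3 (95% interval of the difference -0.81 to -0.19), Gpc6 (-0.69 to -0.14), Sdc4 (0.04 to 0.59) and Gpc2 (-0.63 to -0.023). None passed after adjustment over all probe sets, with adjusted p between 0.625 and 0.716 for these 4. That fit has 1 residual degree of freedom. Its p-values therefore rest on how alike the streptozotocin differences of the cultures were, and on variance shared across probe sets.

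The values of the 3 fibroblast markers are set beside these differences as a description. All 3 were lower with streptozotocin in both cultures, as were 28.5% of all probe sets, and 0 passed the test. In WT2 and WTA Lum, lumican, differed by -1.32 and -0.34, Pdgfra, a growth factor receptor, by -0.49 and -0.35, and Dcn, decorin, by -0.29 and -0.39. Their summed level, in log2, was 13.34 with streptozotocin and 13.80 without in WT2, and 12.81 and 13.18 in WTA. Whether they came from separate fibroblasts was not tested, nor was their part in the glypican differences. In bulk cultures, fewer cells of a type and less RNA per cell cannot be told apart. Leaving out the streptozotocin array of WT2 turned the sign for Sdc2 (0.12), Sdc3 (-0.063), Gpc1 (-0.20) and Gpc4 (-0.027). Leaving out the control array of WTA turned it for Sdc2 (0.08), Sdc3 (-0.0055) and Gpc1 (-0.28). In these fits the group that lost an array lacks a culture, so part of the culture difference enters the value. Within each culture Sdc3 and Gpc4 stood higher with streptozotocin.

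The second comparison set WTA against WT2, in a fit that also held the treatment. Gpc1, Sdc3, Gpc4 and Sdc1 stood lower in WTA, and Gpc3 and Sdc2 higher, on both arrays of each culture. None of the 10 passed the test, while 28 of all probe sets (2.25%) did. Without the streptozotocin or the control array of WTA, limma with the culture alone in the fit called 0, and the spread then came from the WT2 pair alone. At an unadjusted p under 0.05 there were 5 members, against 16.9% of all probe sets, 4 of them lower in WTA (9.55%) and Gpc3 higher (7.30%). The cultures did not overlap for 6 members, against 49.0% of all probe sets, with 2 higher in WTA (21.3%) and 4 lower (27.7%). After quantile normalization 5 members did not overlap.

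Gpc1 had the largest culture difference with all arrays in the fit. Its log2 level was 8.58 and 8.61 in WT2 and 8.08 and 7.96 in WTA, with streptozotocin named first. WTA minus WT2 was -0.57 (SE 0.10, 95% interval -0.86 to -0.29, limma adjusted p = 0.107), or 1.49-fold. Its 2 values within each culture were close, with an SD of 0.021 in WT2 and 0.09 in WTA. Sdc3 followed at -0.41 (SE 0.10, adjusted p = 0.16), Gpc4 at -0.35 (SE 0.09, adjusted p = 0.203) and Sdc1 at -0.27 (SE 0.09, adjusted p = 0.295), by limma.

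Gpc3 went the other way, with a mean of 6.75 ± 0.27 in WT2 and 7.29 ± 0.43 in WTA (SD, n = 2 each). Its culture difference was 0.54 (SE 0.11, 95% interval 0.23 to 0.86, limma adjusted p = 0.135). It ranged from 0.24 without the WTA control array to 0.85 without the WTA streptozotocin array, where Gpc1 stood at -0.64. For Sdc1 the range was -0.38 to -0.15. For Gpc3 WTA minus WT2 was 0.65 between the control arrays and 0.43 between the streptozotocin arrays. For its neighbour Gpc4 the same differences were -0.32 and -0.38. Sdc2 was higher in WTA by 0.25 (SE 0.10, adjusted p = 0.333 by limma).

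The 4 members whose streptozotocin arrays lay apart from their control arrays had, of necessity, overlapping cultures. Sdc4 differed between the cultures by 0.18 (95% interval -0.10 to 0.45), Gpc6 by -0.10 (-0.38 to 0.17) and Gpc2 by -0.13 (-0.43 to 0.17). Gpc5 differed by 0.037 (-0.24 to 0.31), at background. With the streptozotocin array of WTA left out and the culture alone in the fit, the sign turned for Sdc4 (-0.0016), Gpc2 (0.08), Gpc5 (-0.046) and Gpc6 (0.13). Without the control array of WT2 it turned for Gpc5 (-0.0063) and Gpc6 (0.08). Such fits bring part of the streptozotocin difference into the culture difference.

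**Figure D3:**
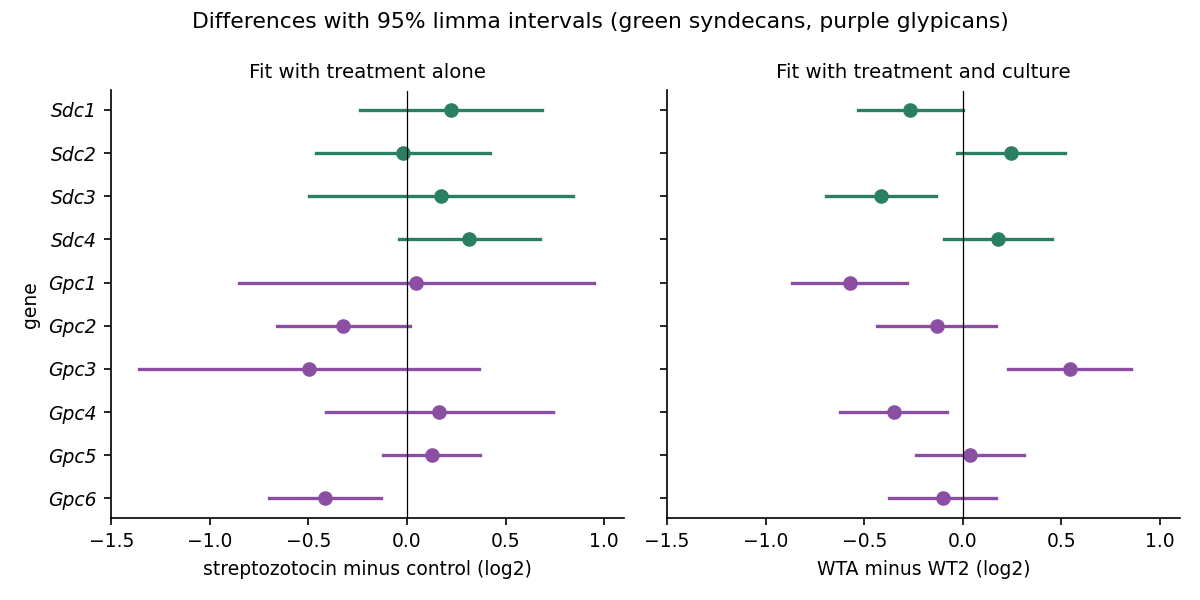
Differences of the 10 genes on the log2 scale with 95% limma intervals, streptozotocin minus control on the left (treatment alone in the fit) and WTA minus WT2 on the right (treatment and culture in the fit). Syndecans are green and glypicans purple. On the left Gpc6 alone has an interval clear of 0, and on the right Gpc1, Gpc3, Gpc4, Sdc1 and Sdc3 do, before adjustment over all probe sets.

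Of the markers listed for other cell types, 2 passed the culture test, which 2.25% of all probe sets did. Both were endothelial and went in opposite directions, and both calls share the limit given above for fits without a WTA array. The log2 of the summed linear signal of the 6 endothelial markers was 10.88 and 10.87 in WT2 and 11.41 and 11.35 in WTA, with streptozotocin named first. The brightest markers weigh most in such a sum, here and below. For Esm1, an endothelial proteoglycan, WTA minus WT2 was 4.93, and for Cd34, of endothelial and stromal progenitors, it was -1.07 (limma adjusted p = 0.00304 and 0.0445). Thbd and Emcn did not pass but were also higher in WTA, by 1.33 and 1.22. Pecam1 stayed near background in both cultures, with means of 3.81 and 3.96. The summed leukocyte markers were 8.22 and 8.40 in WT2 and 8.56 and 8.26 in WTA. The summed fibroblast markers, given above, were lower in both WTA arrays. Whether such cells were present was not tested, nor was any part of them in the members' culture differences.

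The core proteins depend on enzymes that build and edit their chains. Of 32 such genes listed 29 were measured, and 0 passed the streptozotocin test, with a median difference of -0.0051. In both cultures 6 were higher and 9 lower, where all probe sets had 22.6% higher and 28.5% lower. Hs6st2, which sulfates glucosamine at carbon 6, stood higher by 0.65 in WT2 and 0.63 in WTA. Ext1, a subunit of the chain polymerase, was higher by 0.72 and 0.20, and Sulf1, which removes 6-O-sulfate outside the cell, by 0.68 and 0.24. Between the cultures 2 of the 29 passed the test, both higher in WTA, against 2.25% of all probe sets. These and the culture calls below share the limit given above, 0 calls without either WTA array. Hs6st2 was higher in WTA by 1.54 and Hs3st1, which adds the 3-O-sulfate of antithrombin-binding chains, by 1.00 (limma adjusted p = 0.0264 and 0.048). Hs2st1 and Hpse were lower in WTA without passing, with differences of -1.07 and -1.02.

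For the GPI anchor that holds glypicans, 7 of 24 assembly genes were measured and 0 passed either test. Their median was -0.118 for streptozotocin and -0.025 for the culture. Other carriers of heparan sulfate were 5 of 7 listed, again with 0 past either test. Among them Cd44, the hyaluronan receptor of which some forms carry heparan sulfate, stood higher by 0.75 in WT2 and 0.38 in WTA. Tgfbr3, a transforming growth factor co-receptor, differed by -0.18 and -0.31. Srgn, a proteoglycan of secretory granules, differed by 0.35 in WT2 and -0.92 in WTA. Of 14 genes that cut or bind the core proteins, such as Notum, Adam17 and Sdcbp, 0 were among the named probe sets.

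**Figure D4:**
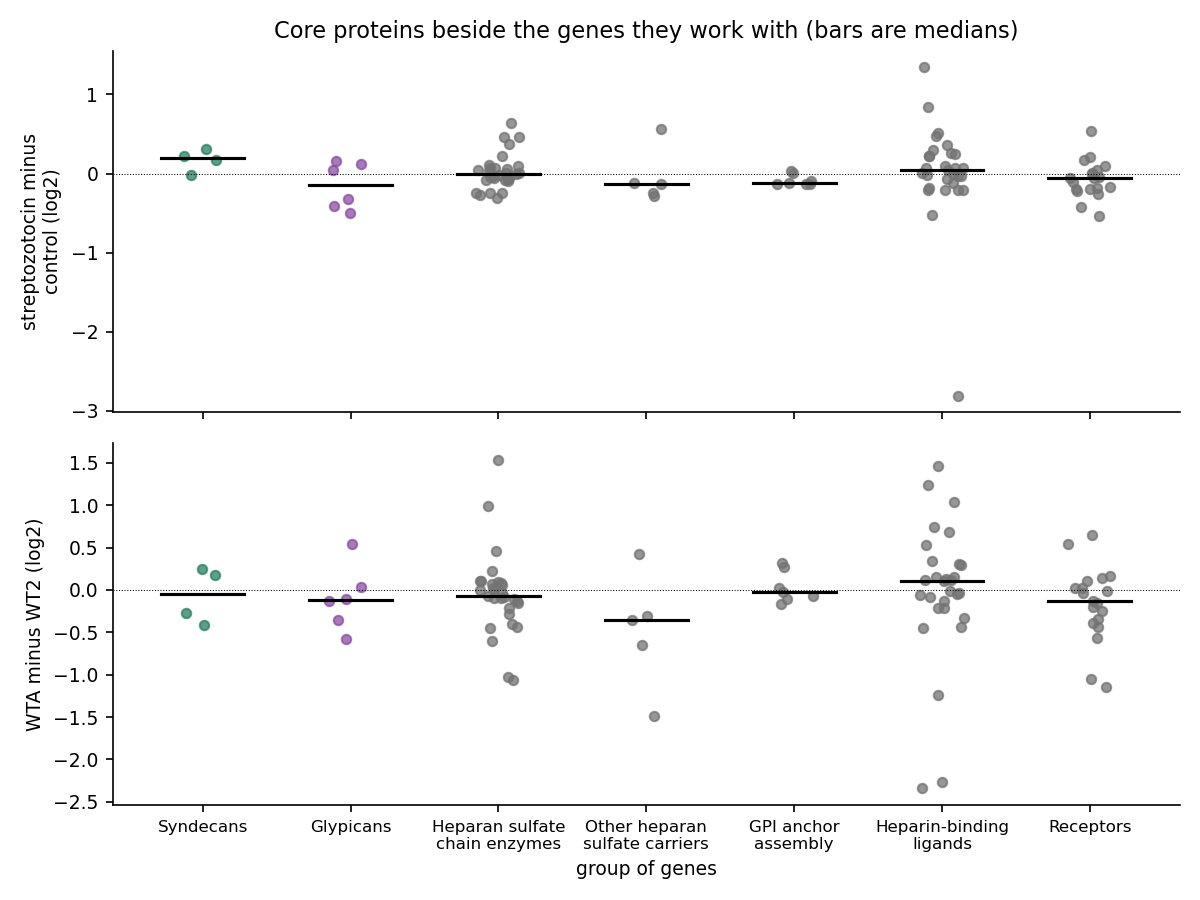
Streptozotocin minus control (upper panel) and WTA minus WT2 (lower panel) on the log2 scale for each measured gene, grouped as syndecans, glypicans and 5 lists of genes that they work with, with black bars at the medians. In the upper panel 3 of 4 syndecans lie above 0, the glypicans lie 3 above and 3 below, and Igfbp5 is the lowest point there, at -2.81.

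Of 34 ligands known to bind heparin or heparan sulfate 29 were measured, and 0 passed the streptozotocin test. Their median difference was 0.049, with 12 higher and 7 lower in both cultures (22.6% and 28.5% of all probe sets). Igfbp5, an insulin-like growth factor binding protein, had a WT2 difference of -3.67 and a WTA difference of -1.95. For the chemokine gene Ccl7 the values were 2.24 and 0.45. Between the cultures 3 passed (2.25% of all probe sets). WTA minus WT2 was -2.34 for Mdk and -1.24 for Fgf10, both growth factor genes, and 1.04 for Igfbp3 (limma adjusted p = 0.0187, 0.0445 and 0.0445).

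Of 23 receptors for these ligands 19 were measured, and 0 passed the streptozotocin test, with a median difference of -0.058. In both cultures 5 were higher and 9 lower (22.6% and 28.5% of all probe sets). Met, the receptor of hepatocyte growth factor, stood higher by 0.52 in WT2 and 0.56 in WTA, while the Wnt receptor gene Fzd2 differed by -0.52 and -0.55. Fgfr2, a receptor of FGF10, differed by -0.37 and -0.49. Between the cultures 2 receptors passed (2.25% of all probe sets), Fzd1 and Fgfr2, with differences of -1.15 and -1.05 (limma adjusted p = 0.0445 for each). Hs3st1, Fgf10 and Igfbp3, outside the rule for named genes, were chosen after their values were seen.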

How the data were processed

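The authors deposited log2 values per probe set. Per the submitters' processing notes, RMA was used, and which version or options is not given in the sources used here. Its usual form equalises the arrays, which hides a global rise or fall of expression. RNA was extracted with Trizol and labelled as biotinylated cRNA, per the labels' protocols. Levels of different probe sets are not read as relative amounts of RNA, because probes bind unequally. The summed marker levels and the positions against array quartiles describe signal only. Probe sets were named through a RefSeq gene table (assembly GRCm38.p6), which named 963 of 1246.

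The members and lists were chosen with earlier results of these data known. All members were named, and up to 3 genes per list and comparison with the largest difference could be. A gene with several probe sets was taken from the one with the highest mean.

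Linear models with moderated variances (limma 3.58.1, R 4.3.3) were fitted over all probe sets, with Benjamini-Hochberg adjustment and a threshold of 0.05. The streptozotocin fit had treatment alone, and the culture fit treatment and culture. Within a culture, with 1 array per arm, differences have no test. Replicate number 1 is WT2 and 2 is WTA in both groups, per the labels, so the numbers pair arrays of 1 named cell sample, and same-numbered arrays deviated together (r = 0.600 over probe sets). Alternatives tried were a replicate block, arrays left out in turn, other scalings, a filter on dim probe sets, other variance priors, other folds and averaged probe sets.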

Additional observations from a re-analysis of the deposited data

Results flagged for a closer look

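Sdc2 and Gpc1 had streptozotocin differences of opposite sign in the cultures, -0.065 in WT2 and 0.024 in WTA for Sdc2, and -0.030 in WT2 and 0.12 in WTA for Gpc1. With 1 array per arm in each culture, the difference between the cultures was not tested.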

How the results depend on the processing

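For streptozotocin, limma called 0 of 1246 probe sets in the fit without and in the fit with the replicate block, and 0 under each other alternative. At an unadjusted p under 0.05 it held 25 and, with the replicate block, 80. Under quantile normalization the sign of Sdc2 turned (0.034). The other alternatives that kept all arrays turned no member's sign in either comparison and brought no member past the test. With 1 array left out, the streptozotocin difference ranged from -0.17 to 0.12 for Sdc2, from -0.063 to 0.41 for Sdc3, from -0.28 to 0.37 for Gpc1 and from -0.027 to 0.35 for Gpc4. The culture difference then ranged from -0.0016 to 0.36 for Sdc4, from -0.34 to 0.077 for Gpc2, from -0.046 to 0.12 for Gpc5 and from -0.33 to 0.13 for Gpc6. Such fits also mix culture with treatment. The culture fit called 28 probe sets, 13 with the culture alone, 0 to 18 with 1 array left out, 8 after quantile normalization, 2 of the 623 above the median level and 49 with a robust fit. The causes were not tested. At 2-fold, 39 probe sets stood apart in WT2 (91 at 1.5-fold) and 7 in WTA (29), with 0 members. After median centring 0 members reached 1.5-fold in WTA, against 1. The added counts of signs and overlaps under other scalings were chosen after seeing the data.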
